A study of Mus musculus with 8 samples.

Results

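The genes described here encode the subunits and regulators of the proteasome and the subunits of the CCT chaperonin. They were chosen by gene symbol: every Psma, Psmb, Psmc, Psmd, Psme and Psmf gene with a number, Tcp1, and Cct2 to Cct5, Cct7 and Cct8. The choice was made with earlier results of these data known. The rule found 51 of the 23337 genes in the table, 44 for the proteasome and 7 for CCT. The gene of the remaining CCT subunit, Cct6a, carries a letter and falls outside the rule, and its values are given with those of the CCT partners. The genes were measured by RNA sequencing of ribosomal-RNA-depleted libraries from cells that had been sorted by flow cytometry as endothelial from whole mouse embryos at E15.5. Dams had received tamoxifen by gavage at E12.5 in one group and no tamoxifen in the other. The design text gives Cdh5-CreERT2(PAC);Rosa26fsTRAP mice for both groups, that is a Cre recombinase made active by tamoxifen and driven by the endothelial Cdh5 promoter, with a Cre-dependent transgene at Rosa26, whereas the genotype label reads wild type. The drug and an activated recombinase cannot be told apart in this design.

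The labels list 8 samples, 4 per group. The table's header is 1 name short, and 6 libraries carry the same group whether the 8 names are set over the first or the last value columns. A name missing elsewhere cannot be seen from the table. These 6 are compared here as no_tamoxifen_1, no_tamoxifen_2 and no_tamoxifen_3 (columns 3 to 5) and as tamoxifen_1, tamoxifen_2 and tamoxifen_3 (columns 7 to 9), and columns 6 and 10 of the table are shown apart. Separate litters or embryos are not mentioned in the labels, so p-values cover only the spread between these libraries, which may be technical. The members took 49042 to 82414 reads in a library, which was 0.550% to 0.691% of the reads outside the ribosomal RNA precursor Rn45s. After depletion Rn45s still took 38.7%, 38.7% and 35.1% of the reads in genes without tamoxifen. With tamoxifen it took 29.4%, 33.7% and 33.3%, each below every control. Its share was 45.7% in column 6 and 32.6% in column 10. Within single members the depth ran from 2679 to 4409 reads for Tcp1 down to 12 to 23 for Psma8 and 1 to 9 for Psmb11. Values are the authors' normalised read counts, called normalised reads below. Macrophage and leukocyte markers were abundant in all 6 libraries (summed level of 11 genes 36078 to 57736 normalised reads) beside the 10 endothelial markers (8549 to 20557), so RNA of other cell types was present. In such bulk RNA, fewer cells of a type and less RNA per cell cannot be told apart.

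The proteasome degrades proteins that carry ubiquitin chains. Its barrel-shaped 20S core is built of alpha rings, which gate the entrance, around beta rings, which hold the proteolytic sites. The 19S particle that caps the core has a base of ATPases, which unfold substrates, and a lid, which removes ubiquitin. In immune cells and under interferon, the immune subunits Psmb8, Psmb9 and Psmb10 take the place of the catalytic Psmb5, Psmb6 and Psmb7. CCT, also called TRiC, is a double-ring chamber in which newly made actin, tubulin and other proteins fold. Proteasome genes share a control by the transcription factor Nfe2l1, and CCT genes are among the known targets of the heat shock factor Hsf1.

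No proteasome or CCT gene passed the test between the groups. A mean of 10 normalised reads was required, which 50 members reached. Of these, limma with Benjamini-Hochberg adjustment over all 13480 genes tested called 0 higher and 0 lower at an adjusted p of 0.05. Among all genes it called 6 higher (0.0445%) and 0 lower (0%). edgeR and DESeq2 on recovered reads also called 0 members, each with 5 lower and 0 higher at an unadjusted p under 0.05. Of all genes, edgeR had 3.09% lower and 6.85% higher at that p, and DESeq2 3.26% and 6.18%. The log2 fold change, tamoxifen over no tamoxifen on the log2(value + 1) scale, was below 0 in 39 of the 50 members, against 53.5% of all genes. Its median was -0.14 over the members and -0.02 over all genes. At an unadjusted limma p under 0.05, 5 members were lower (Psmb7, Psma4, Psmc1, Psmb6 and Psma2) and 0 higher, where 4.12% of all genes were lower and 4.89% higher. The 3 libraries of one group did not overlap those of the other in 4 members, all lower with tamoxifen (Psma1, Psma2, Psma8 and Psmb7). Of all genes 7.62% were lower without overlap and 6.24% higher, so with the deposited scaling the members' share lay near that background. With library totals outside Rn45s in its place, 11 of the 50 members were lower without overlap, a larger share than the 8.4% of all genes.

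Proteasome and CCT genes are given apart. Over the 43 tested proteasome genes the median log2 fold change was -0.18, with 36 below 0. Over the 7 CCT genes it was 0.01, with 4 above 0 and 3 below. The difference between these medians was not tested. The 95% interval lay within 1.5-fold in either direction for 38 of 50 members and for 7 of 7 CCT genes, against 48% of all genes. For 50 of 50 members the upper end of the interval was below a 1.5-fold increase, against 66.9% of all genes. These shares were not matched for depth. Intervals depend on read depth, and the genes tested go down to a mean of 10 normalised reads, where few members lie.

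**Figure D1:**
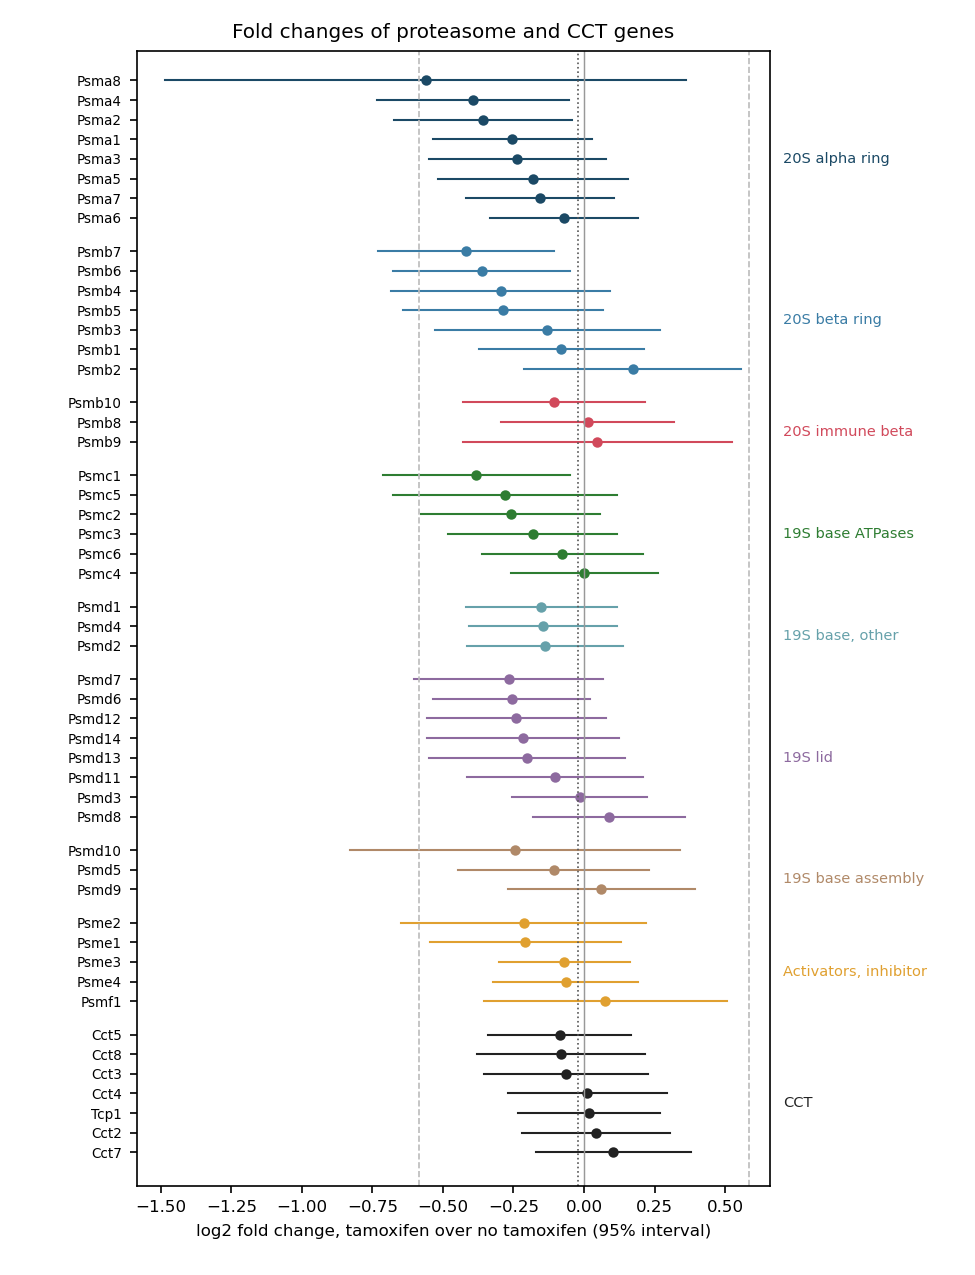
Log2 fold change (x axis, tamoxifen over no tamoxifen, 3 libraries each) of the 50 tested members with its 95% interval from limma, by subcomplex. The dotted line is the median of all genes (-0.02) and the dashed lines mark 1.5-fold. Points of the 20S and 19S genes lie mostly left of 0, from -0.56 for Psma8 to 0.17 for Psmb2, and those of CCT between -0.09 and 0.10.

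The heat shock genes, which made up 5 of the 6 genes called in the whole comparison, give a scale for these values. Of 14 heat shock genes, all tested, 14 had a log2 fold change above 0 and 5 passed the test (Hspa1b, Hspa1a, Dnajb1, Hsph1 and Bag3), with a median of 0.80. Hspa1b, which encodes an inducible chaperone of the Hsp70 family, stood at 1091, 1526 and 1618 normalised reads without tamoxifen and at 78419, 49427 and 44218 with it. Its log2 fold change was 5.32 ± 0.23 (SE, limma adjusted p = 8.83e-05). Reads of Hspa1b and its near-identical neighbour Hspa1a may have been divided either way. The promoters of the members, and of the 10 of 14 heat shock genes that RefSeq promoters matched, were searched for the same short elements. Stretches upstream of the start are printed for Hspa1b and for Cct7, the CCT gene with the highest fold change. They are also printed for Psmb5 and Psmb6, constitutive catalytic subunits whose promoters hold an element searched for. The promoters of the immune Psmb8 and Psmb9 hold such elements too and are not printed. Cct5 was also picked, but its stretches outside annotated exons were too short to print. The printed stretches are RefSeq sequences on GRCm38.p6, 5′ to 3′ on the gene's own strand, cut to bases outside annotated exons. Capitals mark the heat shock element GAANNTTC, the antioxidant response element TGACNNNGC and the CCAAT box, on either strand.
Hspa1b (chr17:34959239-34959488, minus strand): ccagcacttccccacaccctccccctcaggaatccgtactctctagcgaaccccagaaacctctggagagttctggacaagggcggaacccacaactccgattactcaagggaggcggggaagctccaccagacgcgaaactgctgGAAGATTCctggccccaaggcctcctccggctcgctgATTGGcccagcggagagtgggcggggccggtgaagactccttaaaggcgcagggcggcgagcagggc
Cct7 (chr6:85451284-85451504, plus strand): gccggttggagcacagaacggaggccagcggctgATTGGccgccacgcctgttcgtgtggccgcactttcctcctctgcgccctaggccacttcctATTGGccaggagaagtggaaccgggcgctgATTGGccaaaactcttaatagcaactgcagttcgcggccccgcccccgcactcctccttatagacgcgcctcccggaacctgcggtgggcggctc
Psmb5 (chr14:54618023-54618245, minus strand): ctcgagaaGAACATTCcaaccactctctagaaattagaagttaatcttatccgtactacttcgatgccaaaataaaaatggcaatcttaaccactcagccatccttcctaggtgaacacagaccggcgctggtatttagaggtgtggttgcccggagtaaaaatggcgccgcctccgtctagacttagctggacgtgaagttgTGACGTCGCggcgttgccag
Psmb6 (chr11:70525107-70525356, plus strand): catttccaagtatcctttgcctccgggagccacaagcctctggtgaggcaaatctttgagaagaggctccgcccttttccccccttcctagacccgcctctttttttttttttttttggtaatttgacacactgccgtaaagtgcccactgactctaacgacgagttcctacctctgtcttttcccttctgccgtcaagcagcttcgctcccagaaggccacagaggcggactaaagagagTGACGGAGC

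In the printed stretch of Hspa1b the capitals are 1 heat shock element followed by 1 CCAAT box. In Cct7 they are 3 CCAAT boxes. In Psmb5 they are 1 heat shock element and, nearer the start, 1 antioxidant response element, and in Psmb6 1 antioxidant response element next to the start. RefSeq promoters of 250 bases before to 50 after the start were matched for 43 of the 51 members, at 48 starts. The heat shock element in the form GAANNTTC was present in 3 of 40 proteasome promoters (7.5%; Psmb5, Psmb9 and Psmf1), in 1 of 8 CCT promoters (Cct2) and in 7.86% of all 32851 promoters. The form TTCNNGAA was present in 2 of 40 (5%; Psmd4 and Psme3), in 1 of 8 (Cct5) and in 8.52% of all. These forms can overlap. At 1 or more starts, 7 of the 10 matched heat shock genes held either form, Hspa1a, Hspa1b, Hsph1 and Bag3 among them and the called Dnajb1 not. Of the matched proteasome genes 5 held either form. TGACNNNGC was present in 6 of 40 proteasome promoters (15%; Psmb5, Psmb6, Psmc6, Psmd12, Psmd9 and Psme4), in 2 of 8 CCT promoters (Cct2 and Tcp1) and in 12.4% of all. CCAAT was present in 14 of 40 (35%), in 3 of 8 (Cct3, Cct7 and Tcp1) and in 37.4% of all. The interferon-stimulated response element was present in 4 of 40 (10%; Psmb3, Psmd4, Psmd9 and Psme1), in 0 of 8 and in 3.44% of all. The GAS element TTCNNNGAA was present in 2 of 40 (5%; Psmb8 and Psmd2), in 1 of 8 (Cct5) and in 8.30% of all. These are matches of letters in the window and show no binding.

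Of the 8 genes of the alpha ring, 8 had a log2 fold change below 0, with a median of -0.24 and a range from -0.56 (Psma8) to -0.07 (Psma6). Psma4, the alpha-ring gene of lowest p, stood at 1094, 1340 and 930 normalised reads without tamoxifen and at 813, 790 and 937 with it. Only tamoxifen_3 reached the range of the controls, and the log2 fold change was -0.39 ± 0.15 (SE, limma adjusted p = 0.505). Psma2 stood at 838, 1032 and 749 against 668, 637 and 723, and Psma1 at 1129, 1378 and 1136 against 1016, 923 and 1110. In both the highest tamoxifen library was just below the lowest control. Psma8, the alpha subunit of the testis-specific proteasome, was close to the detection limit at 15.6, 20.5 and 17.5 against 14.3, 11.4 and 9.82 normalised reads. Its groups did not overlap, yet at 12 to 23 reads a library the log2 fold change of -0.56 ± 0.40 (SE, limma adjusted p = 0.684) had the widest error among the members tested.

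The 7 constitutive genes of the beta ring had a median log2 fold change of -0.29, with 6 below 0. Psmb7, which encodes the subunit with trypsin-like activity, had the lowest p of all members. It stood at 1317, 1561 and 1116 normalised reads without tamoxifen and at 925, 1005 and 1033 with it. All 3 tamoxifen libraries were below all 3 controls, and the fold was 0.748 (95% interval 0.603 to 0.928, log2 -0.42 ± 0.14 SE, limma adjusted p = 0.474). Psmb6, with caspase-like activity, stood at 1155, 1336 and 1014 against 850, 839 and 1031, a log2 fold change of -0.36 ± 0.14 (SE, limma adjusted p = 0.505). Here tamoxifen_3 was above no_tamoxifen_3. Psmb5, the chymotrypsin-like subunit, stood at 457, 539 and 472 against 328, 422 and 462 (log2 -0.29 ± 0.15 SE, limma adjusted p = 0.601). The non-catalytic Psmb2 had the highest fold change of all members, at 436, 428 and 628 against 530, 517 and 612 (log2 0.17 ± 0.17 SE, limma adjusted p = 0.775), and a single control library spanned the difference. Summed over the 14 constitutive subunits of the 20S core, the libraries without tamoxifen held 13109, 15321 and 12246 normalised reads and those with it 10842, 10850 and 12478, a ratio of means of 0.840. The sum in tamoxifen_3 lay within the control range and the other 2 lay below it.

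**Figure D2:**
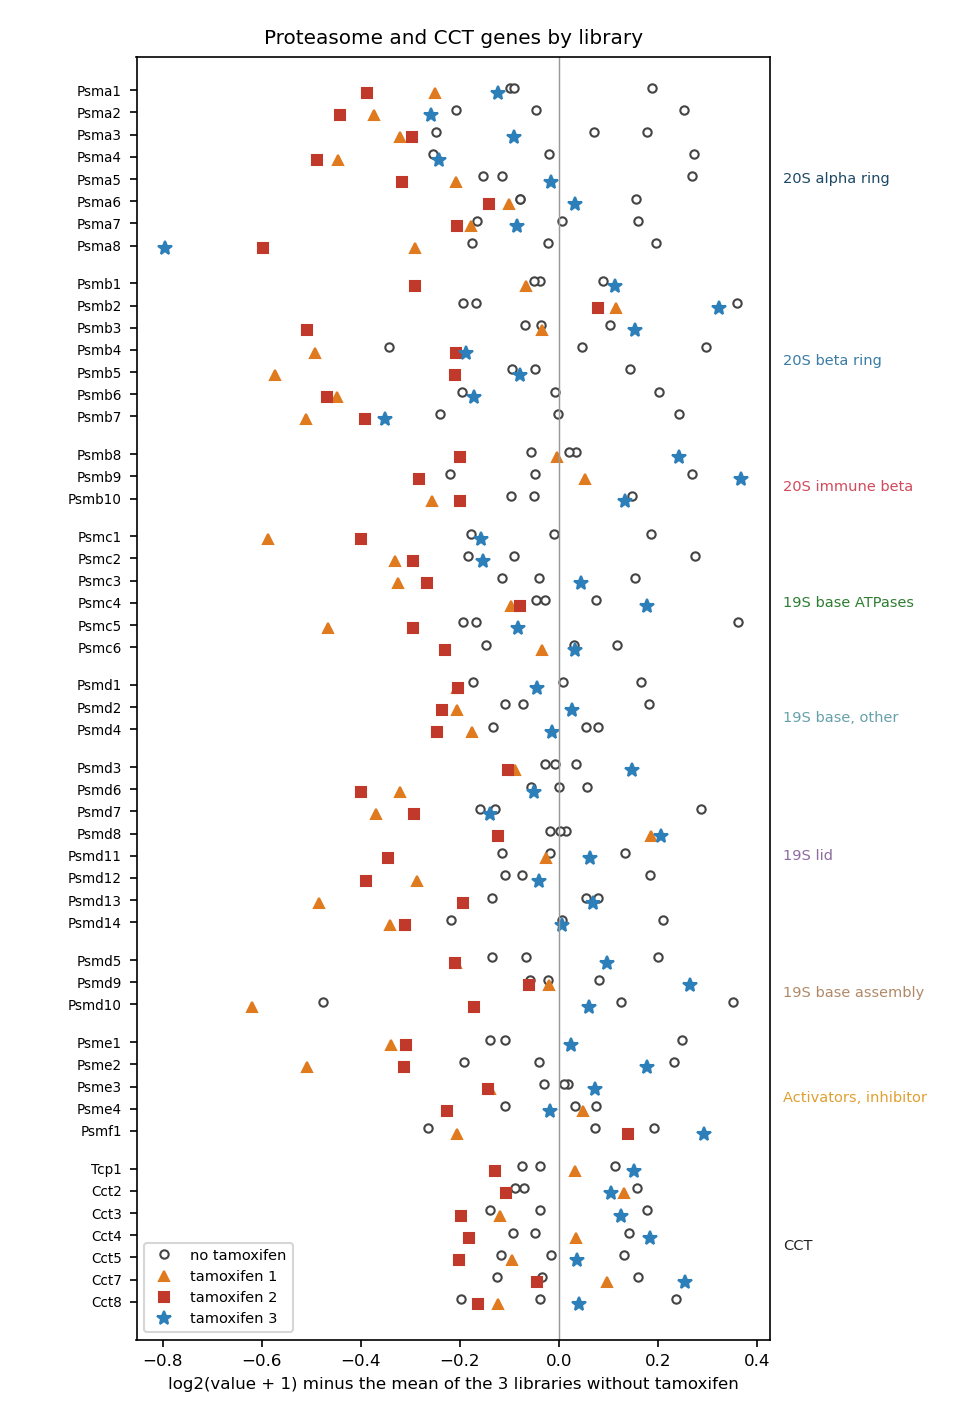
Each of the 50 tested members (y axis, by subcomplex) in each of the 6 libraries (x axis, log2(value + 1) minus the mean of the 3 libraries without tamoxifen). Open circles are libraries without tamoxifen; the triangle, square and star are tamoxifen_1, tamoxifen_2 and tamoxifen_3. In most 20S and 19S genes the triangle and square lie left of 0 (medians -0.25 and -0.27 over the proteasome genes) and the star near it (0.02).

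The immune subunits lay closer to 0, with a median log2 fold change of 0.01 over the 3 tested. Psmb8 stood at 541, 577 and 571 normalised reads without tamoxifen and at 561, 490 and 666 with it, a fold of 1.01 (95% interval 0.816 to 1.25, limma adjusted p = 0.985). Psmb9 stood at 174, 244 and 196 against 210, 166 and 262 (log2 0.05 ± 0.21 SE, limma adjusted p = 0.965). The groups overlapped in both genes, and tamoxifen_3 was the highest library. Psmb10 stood at 507, 524 and 600 against 454, 472 and 595 (log2 -0.11 ± 0.14 SE, limma adjusted p = 0.845). Psmb11, the subunit of the thymic cortex, had 1.74, 5.40 and 4.57 against 2.05, 8.55 and 0.701 normalised reads and was too low to test.

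To set each immune subunit against the constitutive subunit it replaces, its share of the pair was taken per library in reads per kilobase of transcript. Psmb9 made up 8.15%, 9.73% and 10.2% of its pair with Psmb6 without tamoxifen and 12.7%, 10.5% and 13.0% with it. The means were 9.37% ± 1.09 and 12.1% ± 1.39 (SD, n = 3 each), 2.71 percentage points apart, and the groups did not overlap. The exact two-sided permutation p was 0.1, the smallest that 3 against 3 libraries allow, and 0.3 adjusted over the 3 pairs. Psmb8 made up 38.9% ± 1.56 of its pair with Psmb5 without tamoxifen and 44.0% ± 4.76 with it (SD, n = 3 each, exact permutation p = 0.3), and tamoxifen_2, at 39.1%, lay within the control range. Psmb10 made up 26.8% ± 4.84 of its pair with Psmb7 without tamoxifen and 31.1% ± 2.32 with it (SD, n = 3 each, exact permutation p = 0.3). No pair passed the test. Psmb9 overlaps Tap1, and Psmb7 overlaps Nek6, on the other strand. The sources used here do not give whether counting used strand, so reads of such neighbours may be included; 12 of the 51 members have a protein-coding gene on the opposite strand.

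**Figure D3:**
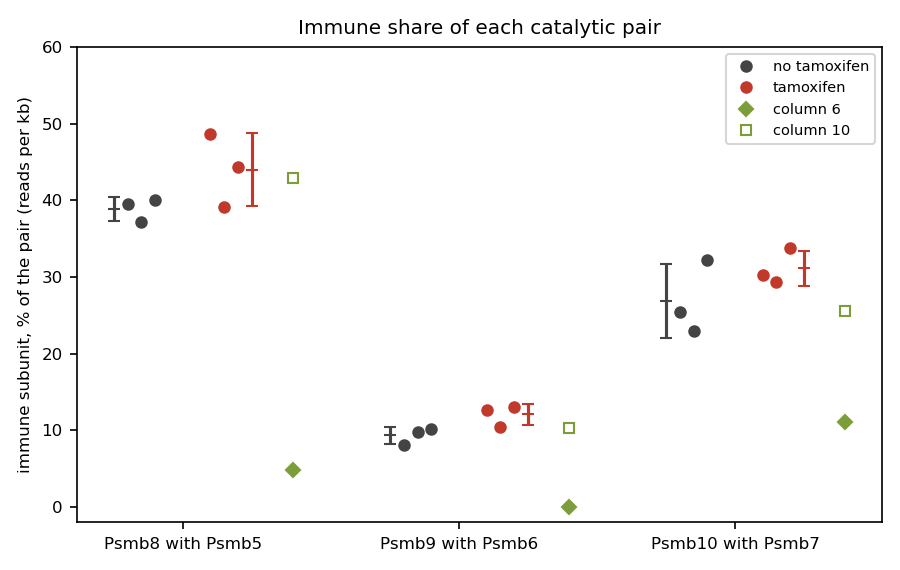
Share of the immune subunit in each catalytic pair (y axis, percent of the pair's normalised reads per kilobase). Points are libraries, bars are the mean ± SD of 3 libraries, and columns 6 and 10 are drawn apart. The Psmb9 shares with tamoxifen, 10.5% to 13.0%, lie above those without it, 8.15% to 10.2%; in the other pairs the groups overlap.

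Most genes of the 19S base and lid also had log2 fold changes below 0, and none passed the test. The 6 ATPase genes had a median log2 fold change of -0.22, with 5 below 0. Psmc1 stood at 1114, 1276 and 992 normalised reads without tamoxifen and at 746, 849 and 1005 with it (log2 -0.38 ± 0.14 SE, limma adjusted p = 0.505). The first 2 tamoxifen libraries were below every control and tamoxifen_3 was not. The 3 other base genes had values from -0.15 to -0.14; among them Psmd4, a receptor for ubiquitin chains, stood at 799, 911 and 925 against 776, 739 and 868 (limma adjusted p = 0.712). Of the 8 lid genes 7 were below 0, with a median of -0.21 and a range from -0.27 (Psmd7) to 0.09 (Psmd8). Psmd14, the enzyme that cuts ubiquitin chains off the substrate, stood at 820, 944 and 702 against 643, 657 and 819 (log2 -0.22 ± 0.15 SE, limma adjusted p = 0.671). The groups overlapped in Psmd4 and Psmd14. Psmd8 stood at 901, 880 and 893 against 1014, 819 and 1029 (log2 0.09 ± 0.12 SE, limma adjusted p = 0.845), with controls that differed little and tamoxifen libraries on both sides of them.

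The assembly chaperones of the base, Psmd5, Psmd9 and Psmd10, had log2 fold changes of -0.11, 0.06 and -0.24. Psmd9 stood at 234, 252 and 228 normalised reads against 235, 228 and 286 (limma adjusted p = 0.920). The interferon-inducible activators of the PA28 ring, Psme1 and Psme2, shared a log2 fold change of -0.21. Psme1 stood at 1162, 1491 and 1138 against 991, 1012 and 1274 (limma adjusted p = 0.682), and Psme2 at 864, 1044 and 778 against 624, 715 and 1006 (limma adjusted p = 0.753). In both, tamoxifen_3 lay inside the control range and the other tamoxifen libraries below it. Psme3, which forms the nuclear PA28 gamma ring, stood at 1478, 1529 and 1520 against 1370, 1366 and 1588, a log2 fold change of -0.07 ± 0.10 (SE, limma adjusted p = 0.862). Psme4, the PA200 activator, stood at 1403, 1361 and 1235 against 1376, 1138 and 1314 (log2 -0.07 ± 0.11 SE, limma adjusted p = 0.890). Psmf1, the proteasome inhibitor PI31, stood at 221, 175 and 240 against 182, 232 and 258 (log2 0.08 ± 0.19 SE, limma adjusted p = 0.925). Tamoxifen libraries lay on both sides of the control mean in these 3 genes.

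The 7 CCT genes kept to a narrow band. Summed, they held 16401, 19578 and 16768 normalised reads without tamoxifen and 17455, 15830 and 19094 with it, means of 17583 ± 1738 and 17460 ± 1632 (SD, n = 3 each) and a ratio of 0.993. The groups overlapped in every one of the 7. Cct7 (CCT eta) had the highest fold change, at 2014, 2454 and 2144 against 2351, 2130 and 2622, a fold of 1.07 (95% interval 0.888 to 1.30, limma adjusted p = 0.818). Cct5 (CCT epsilon) had the lowest, at 2620, 3114 and 2811 against 2661, 2472 and 2916, a fold of 0.942 (95% interval 0.791 to 1.12, limma adjusted p = 0.843). Both intervals hold 1 and end short of 1.5-fold in either direction.

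The other 5 CCT genes of the rule had fold changes between these. Tcp1 (CCT alpha) stood at 2646, 3012 and 2711 normalised reads against 2847, 2545 and 3092, with a log2 fold change of 0.02 ± 0.11 (SE, limma adjusted p = 0.974). Cct2 (beta) stood at 2515, 2986 and 2549 against 2930, 2485 and 2877, with 0.04 ± 0.11 (SE, limma adjusted p = 0.929). In both, tamoxifen_2 was the lowest tamoxifen library. Cct4 (delta) stood at 1894, 2229 and 1953 against 2069, 1780 and 2295, with 0.01 ± 0.12 (SE, limma adjusted p = 0.985). Cct3 (gamma) stood at 2153, 2684 and 2309 against 2184, 2068 and 2589, with -0.06 ± 0.13 (SE, limma adjusted p = 0.904). Tamoxifen_2 was again below every control, as it was in all 7 CCT genes but Cct7 and Cct8. Cct8 (theta) stood at 2560, 3098 and 2291 against 2413, 2349 and 2703, with -0.08 ± 0.13 (SE, limma adjusted p = 0.879). Tcp1 overlaps Mrpl18 and Acat3, Cct7 overlaps Pradc1 and Cct8 overlaps Usp16, each on the opposite strand.

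Per kilobase of transcript the mean levels over the 6 libraries ran from 820 (Cct4) to 1493 (Cct5) normalised reads for CCT. Among catalytic subunits they were 1300 for Psmb6, 1000 for Psmb7 and 497 for Psmb5, against 154 for Psmb9, 401 for Psmb10 and 349 for Psmb8. Psmb4 was the highest member at 1578, and Psma8 at 8.79 and Psmb11 at 0.903 were the lowest. The length is that of the longest protein-coding transcript in GENCODE M21, and levels shift with the transcript taken. On GRCm38, Psmb7 lies on chromosome 2 at 38588036 to 38644087, Psmb6 on chromosome 11 at 70525367 to 70527858, Psmb5 on chromosome 14 at 54614119 to 54618022 and Psmc1 on chromosome 12 at 100110154 to 100123405. Psmb8 and Psmb9 lie close together on chromosome 17, at 34197721 to 34201454 and 34181987 to 34187764. Tap1 lies between them, at 34187553 to 34197225. Cct7 lies on chromosome 6 at 85451514 to 85468475 and Cct5 on chromosome 15 at 31590800 to 31601804. Values are read counts over the whole gene, so no single exon or UTR is referred to.

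The tamoxifen libraries were not alike in the proteasome genes. Relative to the mean of the controls, the median log2 difference over the 43 genes was -0.25 in tamoxifen_1, -0.27 in tamoxifen_2 and 0.02 in tamoxifen_3, and -0.04, 0.17 and -0.11 in the controls themselves. For CCT the tamoxifen values were 0.03, -0.16 and 0.13 and the control values -0.09, 0.16 and -0.04. Without tamoxifen_3 the median log2 fold change was -0.27 for the proteasome and -0.07 for CCT, and 46 of 50 members were below 0, against 55.4% of all genes. The value of tamoxifen_3 by itself, the 0.02 above, was singled out after the data were seen. Without tamoxifen_3, 2 members passed the test, Psmc1 (log2 -0.49 ± 0.14 SE, limma adjusted p = 0.0273) and Psmb6 (log2 -0.46 ± 0.13 SE, limma adjusted p = 0.0386). In that fit 3.48% of all genes were called lower and 7.22% higher. The count at an unadjusted limma p under 0.05 was then 19 lower and 0 higher, against 11.6% lower among all genes. The groups did not overlap in 31 of 50 members, all lower, against 22.7% of all genes.

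Other single libraries weakened or widened the pattern. The proteasome median was -0.10 without no_tamoxifen_2, -0.13 without tamoxifen_1 and without tamoxifen_2, -0.20 without no_tamoxifen_1 and -0.24 without no_tamoxifen_3. The 5 members lower at an unadjusted limma p under 0.05 became 0 without no_tamoxifen_2 (1.36% of all genes) and 0 without tamoxifen_1 (1.74%). They became 1 without no_tamoxifen_1 (1.76%) and 1 without tamoxifen_2 (2%), and 8 without no_tamoxifen_3 (5.76%).

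Markers of other cell types separated the same libraries. The score of 10 mesenchymal markers (the mean of log2(value + 1)) stood at 10.22 for tamoxifen_1, 10.62 for tamoxifen_2 and 6.72 for tamoxifen_3, where the controls ran from 5.52 to 6.74. Summed, these markers held 56326 and 87053 normalised reads in the first 2 tamoxifen libraries, 4487 in tamoxifen_3 and 2016 to 4328 in the controls. The 6 cartilage markers ran likewise (9.77 and 9.41 against 5.80, controls 5.40 to 5.95). Macrophage and leukocyte markers ran the other way, with scores of 11.28 and 11.20 against 11.91 in tamoxifen_3 and 11.55 to 11.73 in the controls, and 11 of their 11 tested genes had a log2 fold change below 0. For the 10 endothelial markers the tamoxifen libraries scored 10.56, 10.61 and 9.37 and the controls 9.98 to 10.60. The 6 mural markers scored 7.75, 7.74 and 5.24 (controls 5.70 to 6.40) and the 3 tested erythroid markers 4.79, 4.90 and 6.64 (controls 5.02 to 6.26). None of the tested markers was at 0 in any of the 6 libraries, and markers too low to test were not checked for this. The part of this difference in cell content in the proteasome values was not tested.

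**Figure D4:**
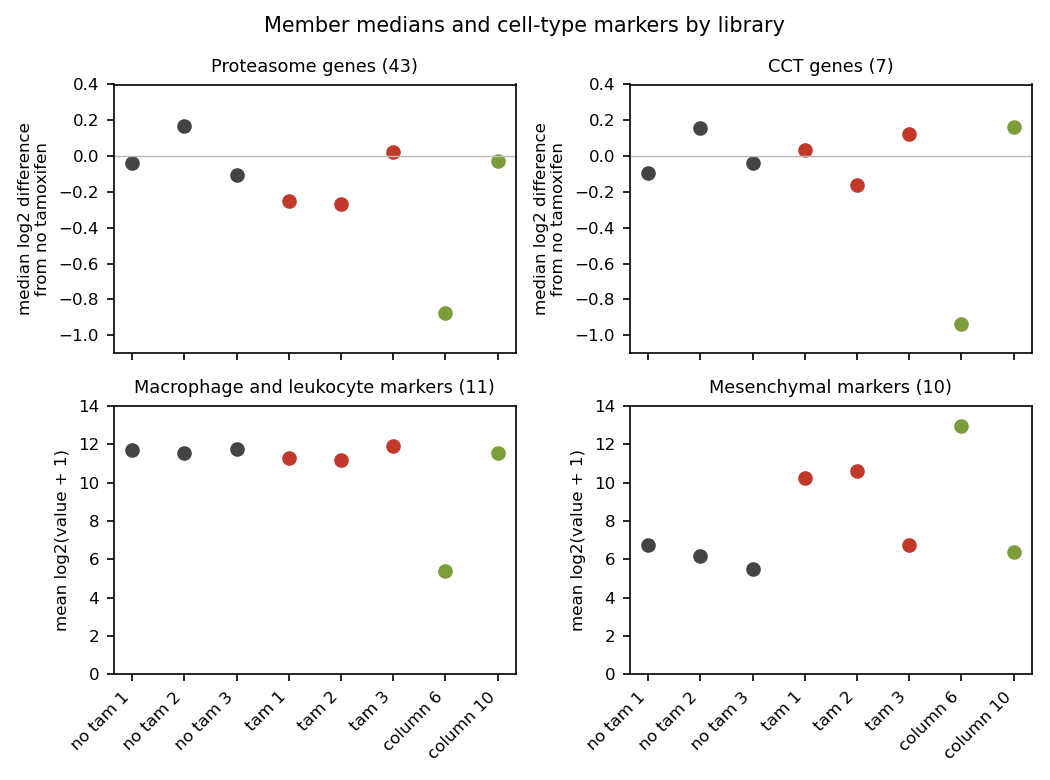
Upper panels show the median log2 difference from the controls over 43 proteasome genes and 7 CCT genes in each library, and lower panels the macrophage/leukocyte and mesenchymal marker scores (mean log2(value + 1)). The proteasome median is lowest in column 6 (-0.88), then in tamoxifen_2 (-0.27) and tamoxifen_1 (-0.25). In that order, these libraries have mesenchymal scores of 12.95, 10.62 and 10.22, the highest. Their macrophage and leukocyte scores of 5.42, 11.20 and 11.28 are the lowest. A link between medians and markers was not tested.

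Partners of the proteasome gave no call. Of 22 tested genes that assemble, recruit to or control it, 9 had a log2 fold change above 0 and 13 below, with a median of -0.09. Zfand2a, a stress-inducible protein that binds the proteasome, had the lowest p, at 484, 477 and 568 normalised reads without tamoxifen and 1616, 906 and 1095 with it. All 3 tamoxifen libraries exceeded all controls, and the log2 fold change of 1.20 ± 0.20 (SE) did not pass the test (limma adjusted p = 0.221). Of the 22 genes, 3 were higher without overlap and 2 lower, against 6.24% and 7.62% of all genes. Nfe2l2, a transcription factor of the antioxidant response, stood at 1303, 1261 and 1257 against 1650, 1306 and 2265 (log2 0.41 ± 0.18 SE, limma adjusted p = 0.550). Pomp, the maturation chaperone of the 20S core, stood at 584, 717 and 652 against 603, 555 and 574 (log2 -0.17 ± 0.12 SE, limma adjusted p = 0.676). Of 14 tested genes of the interferon response and antigen processing, 12 were above 0 and 0 passed the test, with a median of 0.09. With tamoxifen their list scored 8.93, 8.56 and 9.46, where the controls ran from 8.88 to 8.93, so tamoxifen_3 was the highest and tamoxifen_2 the lowest of the 6. Summed, tamoxifen_1 and tamoxifen_2 (16236 and 16052 normalised reads) lay below the controls (16583 to 17531) and tamoxifen_3 (23317) above them. The transcription factor gene Irf1 had the lowest p there (log2 0.42 ± 0.12 SE, limma adjusted p = 0.462), and Irf8 stood at 0.14 ± 0.11 (SE, limma adjusted p = 0.699).

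None of the partners of CCT passed the test. Of 21 tested genes, among them prefoldin subunits, phosducin-like proteins and tubulin folding cofactors, 15 were below 0 and 6 above, with a median of -0.19. Txndc9, a phosducin-like regulator of CCT, stood at 453, 476 and 418 normalised reads without tamoxifen and at 327, 299 and 368 with it (log2 -0.44 ± 0.13 SE, limma adjusted p = 0.462). Tbca, which takes up folded beta-tubulin, stood at 309, 355 and 236 against 168, 208 and 228 (log2 -0.56 ± 0.19 SE, limma adjusted p = 0.475). In both genes every tamoxifen library was below every control. The same held for 5 of the 21 in all, with 0 higher without overlap, against 7.62% and 6.24% of all genes. At an unadjusted limma p under 0.05, 5 were lower and 0 higher, against 4.12% and 4.89% of all genes. Cct6a, the zeta subunit of CCT, stood at 1506, 1666 and 1414 against 1474, 1285 and 1535 (log2 -0.10 ± 0.11 SE, limma adjusted p = 0.822).

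Column 6, which is a library without tamoxifen under one reading of the short header and a tamoxifen library under the other, stood apart in the members. It held 16347 member reads, 0.346% of its reads outside Rn45s, and was below every control library for 45 of 51 members, within their range for 1 (Psmd4) and above it for 5 (Psmb11, Psmd9, Psme3, Psme4 and Psmf1). The median log2 difference from the controls was -1.38 for the alpha ring, -1.24 for the beta ring, -0.82 for the ATPases, -0.42 for the lid and -0.94 for CCT, against -0.11 over all genes. The 20S core summed to 5702 normalised reads, beside 12246 to 15321 in the controls, and CCT to 8784, beside 16401 to 19578. Relative to the controls, Psmb9 and Psmb8 were lowest: Psmb8 had 16.3 normalised reads (8 reads), and Psmb9 had 0, at least 33.5-fold lower than the control mean of 204 at a floor of 3 reads in that library. Psme1, Psmb10 and Psme2 followed, at 210, 97.6 and 191 normalised reads, which were 0.166, 0.180 and 0.214 of the control means. Macrophage and leukocyte markers had a summed level of 863 normalised reads there, beside 46872 to 54672 in the controls, and mesenchymal markers 450099. The part of that cell content in the member values was not tested.

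Column 10, named as a tamoxifen library under one reading and not named under the other, lay within the control range for 35 members, above it for 8 and below it for 8. Its 20S core summed to 12539 normalised reads and its CCT genes to 18863. The median log2 difference was -0.03 for the proteasome and 0.16 for CCT. Its mesenchymal score of 6.38 lay within the control range, and its endothelial score of 8.71 lay below those of all 6 libraries. Hspa1b stood at 56354 normalised reads in column 10 and at 924 in column 6. The reading of the header sets the direction for the members. With the names over the last 8 value columns, which makes column 6 a control, the proteasome median was 0.04 and the CCT median 0.28. With the names over the first 8, which makes it a tamoxifen library, they were -0.40 and -0.26. Under both readings 0 members passed the test.

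**Figure D5:**
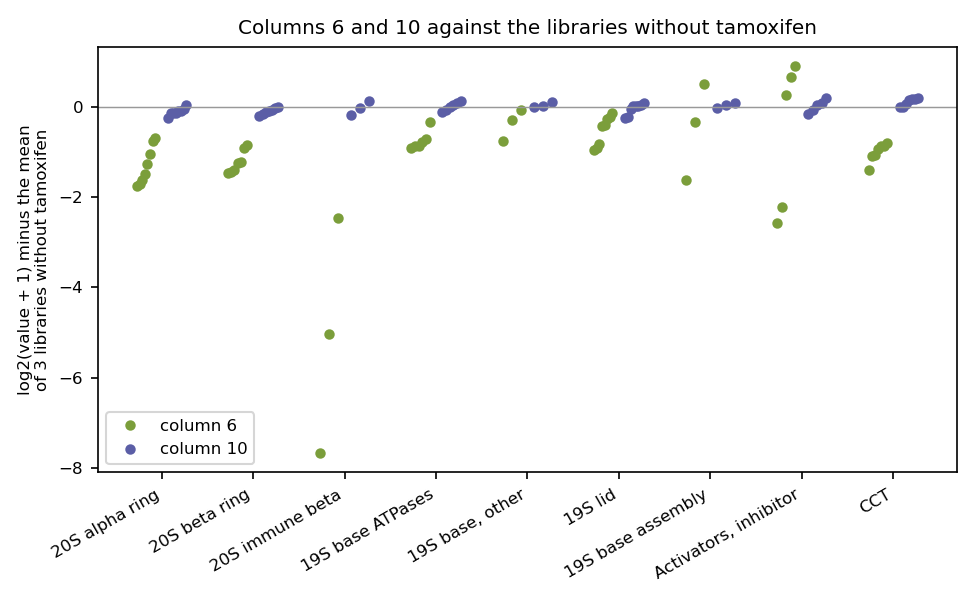
Tested members in columns 6 and 10 (y axis, log2(value + 1) minus the mean of the 3 libraries without tamoxifen), by subcomplex. In column 6 the lowest points are Psmb9 (-7.67, at 0 reads) and Psmb8 (-5.03), and the activators and inhibitor spread from -2.58 (Psme1) to 0.90 (Psme3), while the medians of column 10 run from -0.11 (alpha ring) to 0.16 (CCT).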

How the data were processed

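The members and all gene and marker lists were chosen with earlier results of these data known. The authors deposited 1 table of normalised read counts per gene symbol, a signal unit. Tools named in the submitters' processing notes are STAR, HTSeq 0.11.2 and DESeq2, with the builds hg38 and mm10, roles not given. Every deposited value was a whole multiple of 1 step in its column (100% within 0.001 reads), so reads were recovered for depth and for edgeR 4.0.16 and DESeq2 1.42.0 as alternatives.

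The header has 9 fields over lines of 10. Columns 6 and 10 depend on where the names are placed, and 1 other value column was not used. limma 3.58.1 in R 4.3.3 was run on log2(value + 1) with trended empirical Bayes moderation and no covariate, for genes with a mean of at least 10, two-sided, adjusted over all of them. This scale understates changes of low genes. Library depth was 12212472 to 19908404 reads in genes.

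Members named with values in every library were those past the threshold, the 3 proteasome genes of lowest p in each direction, all CCT genes, the catalytic, tissue-restricted and activator genes, Psmd4 and Psmd14. Psma1 and Psma2 were named after their values were seen. Per pathway list, genes past the threshold and the 2 of lowest p were named, and Cct6a and Pomp whatever their values. Of the listed partners and markers, 2 proteasome, 2 CCT, 1 leukocyte and 1 erythroid symbol were not found in the table. Alternatives were pseudocount 10, no filter or a minimum of 50, other scalings, edgeR, DESeq2, a replicate block, both header readings and each library left out.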

Additional observations from a re-analysis of the deposited data

Results flagged for a closer look

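Column 6, whose group the short header does not settle and which the comparison leaves out, held 3 members at over 1.5 times the highest library without tamoxifen. Psmb11, the thymic beta subunit, stood at 30.5 normalised reads (15 reads), 5.65 times the highest control library. Psme3 stood at 2807 normalised reads, 1.84 times the highest control, and Psme4 at 2118, 1.51 times. The same column was below every control library for 45 of the 51 members.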

How the results depend on the processing

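Of the settings run, members were called only without tamoxifen_3. Leaving out single libraries gave 0 to 2 members called lower, 2 to 973 genes higher and 0 to 469 genes lower over the whole table, with the upper ends without tamoxifen_3. DESeq2 called 247 genes higher and 28 lower, and column 10 added to the tamoxifen group gave 1 lower. Same-numbered libraries deviated together with correlations of 0.20, 0.04 and 0.34, and tamoxifen_2 correlated best with no_tamoxifen_1 (0.33), so the numbers were not taken as pairs. The replicate block called 20 genes higher, 1 lower and 0 members.

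Placing the names over the last 8 value columns gave a median of 0.042 for the proteasome and 0.28 for CCT. Sign then changed for Psmd9 (-0.086), Psma4 (0.11), Cct3 (0.26), Cct5 (0.29), Cct8 (0.18), Psmb5 (0.12), Psmb10 (0.49), Psme1 (0.45), Psme2 (0.38) and Psmd14 (0.083). With the names over the first 8, which leaves out 1 column that reading names, 0 genes were called higher, the medians were -0.40 and -0.26, and sign changed for Psmb2 (-0.22), Psmd8 (-0.14), Tcp1 (-0.21), Cct2 (-0.18), Cct4 (-0.26), Cct7 (-0.16), Psmb8 (-1.25), Psmb9 (-1.88), Psme3 (0.17) and Psme4 (0.12). The cause was not tested. The proteasome median of tamoxifen_3 by itself, 0.024, is the library median given above and not a further setting. Of 441 values for the 26 named tested members under 17 settings, these 20 changed sign by more than the spread, 19 by less, and 2 came to pass the threshold (Psmc1 and Psmb6 without tamoxifen_3). Depth limits Psma8 and Psmb11, at 1 to 23 reads a library.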
